A study of Mus musculus with 8 samples.

Results

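The subunits of the phagocyte NADPH oxidase were followed in spinal cord RNA of mice with experimental autoimmune encephalomyelitis (EAE), an inflammatory demyelinating disease used as a model of multiple sclerosis. The members were Cybb, Cyba, Ncf1, Ncf4 and Rac2, taken by the gene symbol that the annotation of the array gives to a probe set. They were measured by 6 probe sets of 12422, and as 5 genes of 8251 with a symbol. Cyba had 2 probe sets and each other member had 1.

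Whole spinal cords of female SJL/J mice were hybridized to Affymetrix MG U74Av2 arrays. The EAE group comprised 5 arrays from 10 mice, injected with a peptide of the myelin protein PLP and killed between day 12 and day 17 at an average grade of 2.5. These mice also received murine serum albumin intravenously 3 hours before they were killed. The control group comprised 3 arrays from 6 mice that received vehicle only, for which the labels name no albumin, so that albumin and EAE cannot be told apart. All mice were 8 to 12 weeks old by the labels, were perfused with buffer according to the methods, and were pooled 2 to an array. An EAE array was paired with a control array in batches 1, 2 and 3, while EAE arrays 4 and 5 had a batch of their own without a control. The label of EAE array 1 gives day 14, that of array 2 days 12 to 14, that of array 3 day 17, that of array 4 day 14 and that of array 5 day 15.5.

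The oxidase moves electrons from NADPH across a membrane onto oxygen and so makes superoxide, which phagocytes use to kill microbes. Its membrane part is a flavocytochrome of the catalytic subunit gp91phox, encoded by Cybb, and its partner p22phox, encoded by Cyba. In resting cells the other subunits stay in the cytosol: among them the organizer p47phox (Ncf1) and p40phox (Ncf4), which binds a phosphoinositide of phagosome membranes. Upon stimulation p47phox is phosphorylated, the cytosolic subunits join the flavocytochrome, and a Rac GTPase bound to GTP completes the active enzyme. Rac2 is the Rac protein of blood cells, whereas Rac1 is found in nearly all cells. In the spinal cord the complex is known above all from microglia and from myeloid cells that enter in inflammation. Patients who lack the catalytic subunit gp91phox have chronic granulomatous disease.

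Promoter sequences were set beside the values as a description, and whether the members share promoter control was not tested. RefSeq promoter windows of assembly GRCm38.p6 matched 3 of the 5 members, Cybb, Cyba and Ncf1, and none matched Ncf4 or Rac2. Each window runs from 250 bases before the start site to 50 bases after it, and 5 motifs were searched in it on both strands. These were GAGGAA, a core bound by the myeloid factor PU.1 (Spi1), a composite of an Ets core such as that of PU.1 and an interferon regulatory factor (IRF) element, written GGAA and GAAA with any 2 bases between them, an IRF pair, written GAAA and GAAA with any 2 bases between them, TTCNNNGAA, the GAS element of STAT factors, and CCAAT. The stretches printed lie on the minus strand, at chrX:9469325-9469474 and chrX:9469295-9469324 for Cybb, at chr5:134229626-134229775 for Ncf1 and at chr8:122432941-122433090 for Cyba, and capitals mark the bases of any motif found.
Cybb, 150 bases before the start: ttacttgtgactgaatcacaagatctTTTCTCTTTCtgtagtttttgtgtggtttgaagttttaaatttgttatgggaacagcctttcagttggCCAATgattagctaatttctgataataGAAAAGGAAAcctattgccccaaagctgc
Cybb, 30 bases after the start: tgtTTTCATTTCCTCatcagaagaagaagc
Ncf1, 150 bases before the start: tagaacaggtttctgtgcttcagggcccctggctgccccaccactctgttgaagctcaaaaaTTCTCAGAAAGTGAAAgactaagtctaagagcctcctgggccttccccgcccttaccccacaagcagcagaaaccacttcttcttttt
Cyba, 150 bases before the start: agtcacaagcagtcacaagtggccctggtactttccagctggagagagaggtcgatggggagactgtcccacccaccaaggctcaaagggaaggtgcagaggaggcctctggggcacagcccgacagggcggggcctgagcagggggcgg

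The gene record of Cybb spans chrX:9435252-9487766, so the start site of its window lies inside the gene, not at its upstream end. In the Cybb window the Ets and IRF composite lay on the reverse strand 4 to 13 bases after the start, overlapping a GAGGAA core at 10 to 15. The window also held IRF pairs at -168, -124 and -29 and a CCAAT box at -56, counted from the start site to the first base of the motif. The Ncf1 window held an IRF pair at -82 that overlapped a GAS element at -88. None of these letters occurred in the Cyba window. Of 32841 promoter windows of the same length, 28.3% held GAGGAA, 2.72% the composite, 3.44% an IRF pair, 8.30% a GAS element and 37.4% CCAAT. A match describes the letters only.

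All 6 probe sets of the 5 genes were higher in EAE than in control at an adjusted p under 0.05 from limma, and for each of them every EAE array lay above every control array. Over all 12422 probe sets 8.26% were higher at this threshold, and for 10.9% every EAE array lay above every control array. All but Ncf1, 5 of the 6, were also at least 2-fold higher, as were 3.37% of all probe sets. The median log2 fold change over the 5 genes, each by its brightest probe set, was 2.46, against -0.052 over all 8251 genes. The exact permutation p was 0.0179 for each probe set (two-sided), and no lower value is possible with 56 regroupings. These regroupings of the 8 arrays ignore the pairing by batch, and the value adds little to the lack of overlap. In bulk tissue a change in the number of cells that carry a transcript and a change in the transcript per cell cannot be told apart. All signals are on the log2 scale, and signals of different probe sets were not set against each other.

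**Figure D1:**
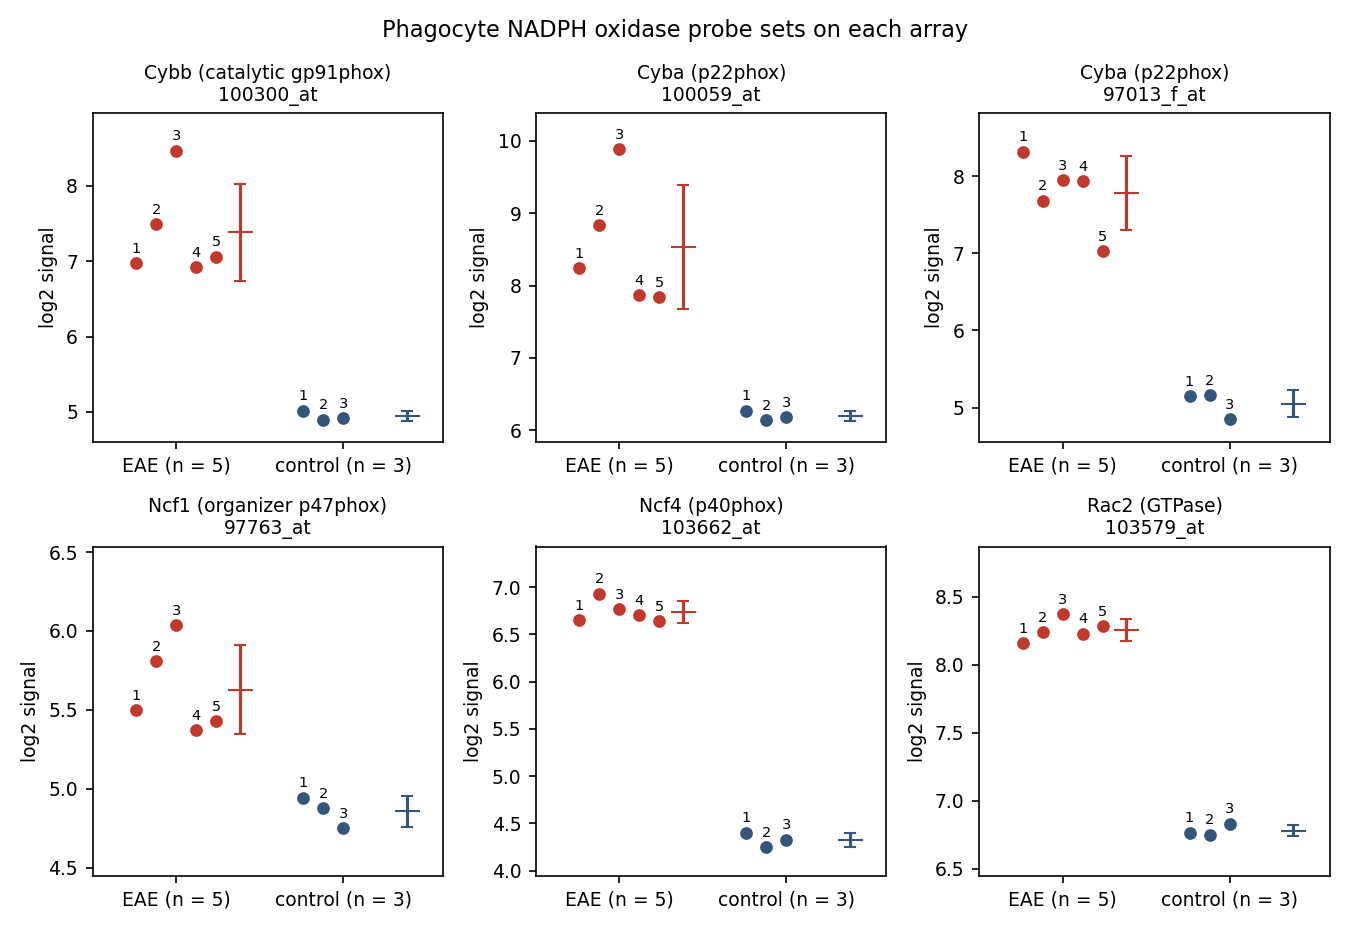
Log2 signal of each oxidase probe set (own vertical axis in each panel) on the 5 EAE arrays and the 3 control arrays, with the replicate number above each point and the mean and SD of the group beside the points. In every panel the EAE arrays lie above the control arrays, and EAE array 3 is highest for Cybb (8.47), Cyba 100059_at (9.88), Ncf1 (6.03) and Rac2 (8.37).

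Cybb, the catalytic subunit, showed a log2 signal of 6.97, 7.49, 8.47, 6.92 and 7.06 on EAE arrays 1 to 5, against 5.02, 4.90 and 4.92 on control arrays 1 to 3. The lowest EAE array was thus well above the highest control array, and EAE array 3 stood above the other EAE arrays. The arrays averaged 7.38 ± 0.65 in EAE and 4.94 ± 0.06 in control (SD, n = 5 and 3). EAE exceeded control by 2.70 ± 0.299 log2 units (estimate ± SE, limma, adjusted p = 0.00593), a 6.49-fold difference with a 95% confidence interval of 3.82 to 11.04. Within batches 1, 2 and 3 the EAE array exceeded the control array by 1.95, 2.59 and 3.55 log2 units. The spread of Cybb was unequal in the groups: the EAE arrays covered 1.55 log2 units and the control arrays 0.12, and 99.2% of all probe sets had a smaller SD over the EAE arrays. Its control signals were dim, with 19.3% of all probe sets dimmer in control. Whether they lie above background was not tested.

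Cyba, the partner that stabilizes gp91phox in the membrane, was measured by probe sets 100059_at and 97013_f_at. With 100059_at the signal was 8.24, 8.83, 9.88, 7.87 and 7.84 on EAE arrays 1 to 5, against 6.27, 6.14 and 6.18 on control arrays 1 to 3. As for Cybb, EAE array 3 was highest and array 2 next, and the groups did not overlap. EAE exceeded control by 2.78 ± 0.322 log2 units (estimate ± SE, limma, adjusted p = 0.00672), a 6.89-fold difference (95% confidence interval 3.89 to 12.2), with within-batch differences of 1.96, 2.69 and 3.70.

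With 97013_f_at the signal of Cyba was 8.32, 7.68, 7.95, 7.94 and 7.03 on EAE arrays 1 to 5, against 5.15, 5.16 and 4.85 on control arrays 1 to 3. Here EAE array 1 was highest and array 5 lowest, so that the probe sets of this gene agreed on the group difference but not on the order of the EAE arrays. EAE exceeded control by 2.93 ± 0.143 log2 units (estimate ± SE, limma, adjusted p = 0.000559), with within-batch differences of 3.17, 2.53 and 3.10. The suffix f marks probe sets whose probes can match related transcripts, so the values of 97013_f_at are less certain as a measure of Cyba alone.

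**Figure D2:**
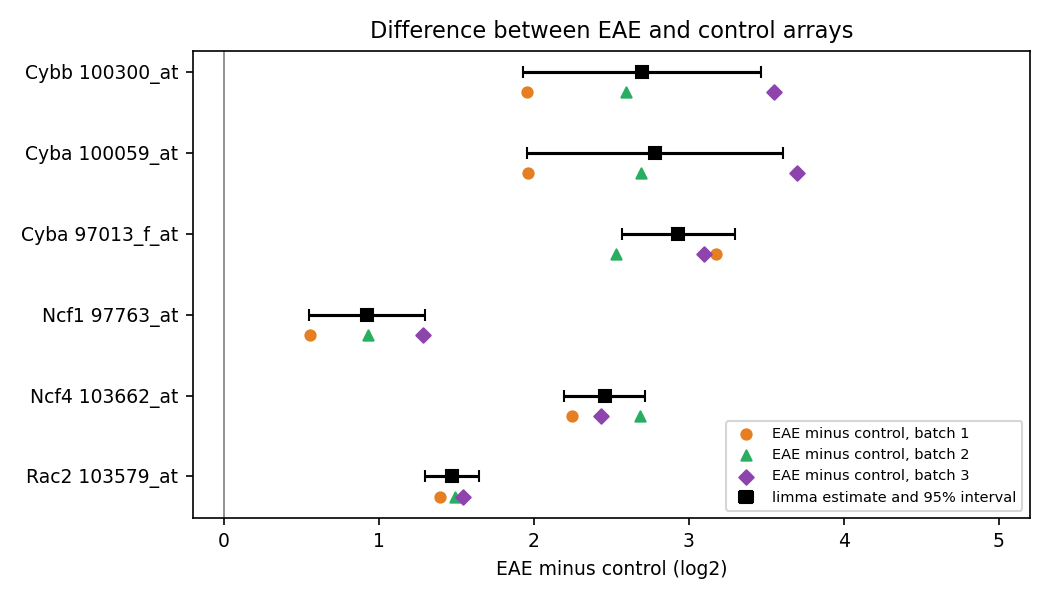
Difference between EAE and control (log2) for each oxidase probe set: squares and bars give the limma estimate and its 95% confidence interval, and the other symbols the EAE array minus the control array in batches 1, 2 and 3. All estimates and all within-batch differences lie above 0, from 0.55 for Ncf1 in batch 1 to 3.70 for Cyba 100059_at in batch 3.

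Ncf1, whose product p47phox carries the other cytosolic subunits to the membrane, had the smallest estimate of the members; differences between members were not tested. Its signal was 5.50, 5.81, 6.03, 5.37 and 5.43 on EAE arrays 1 to 5, against 4.94, 4.88 and 4.75 on control arrays 1 to 3. The lowest EAE arrays, 4 and 5, were closer to the controls than for any other member. EAE exceeded control by 0.92 ± 0.147 log2 units (estimate ± SE, limma, adjusted p = 0.0154), a 1.90-fold difference (95% confidence interval 1.46 to 2.46), with within-batch differences of 0.55, 0.93 and 1.28. The call was lost without an array of batch 2 (adjusted p = 0.0663) or of batch 3 (adjusted p = 0.0691).

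Ncf4, which encodes the phosphoinositide-binding p40phox, varied little within either group. Its signal was 6.65, 6.93, 6.77, 6.70 and 6.64 on EAE arrays 1 to 5, against 4.40, 4.25 and 4.33 on control arrays 1 to 3. The EAE arrays lay within 0.29 log2 units of each other, and EAE array 3 was not the highest. EAE exceeded control by 2.46 ± 0.101 log2 units (estimate ± SE, limma, adjusted p = 0.000388), a 5.49-fold difference (95% confidence interval 4.59 to 6.56), with within-batch differences of 2.25, 2.68 and 2.44. No detection calls were used, so whether the control signals of any member lie above background was not tested. In control 5.64% of all probe sets were dimmer than Ncf4, 17.1% than Ncf1, 19.3% than Cybb and 22.3% than Cyba 97013_f_at. The folds of these probe sets may be lower bounds.

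Rac2, the GTPase of the complex in blood cells, showed a signal of 8.16, 8.24, 8.37, 8.23 and 8.29 on EAE arrays 1 to 5, against 6.76, 6.75 and 6.83 on control arrays 1 to 3. The EAE arrays lay within 0.21 log2 units of each other, and 25.3% of all probe sets had a smaller SD over them. EAE exceeded control by 1.47 ± 0.0681 log2 units (estimate ± SE, limma, adjusted p = 0.000486), a 2.78-fold difference (95% confidence interval 2.46 to 3.14), with within-batch differences of 1.39, 1.49 and 1.54. Rac1, its close relative of most cells, averaged 10.73 ± 0.14 in EAE and 10.70 ± 0.09 in control (SD, n = 5 and 3). Its log2 fold change was -0.029 (95% confidence interval -0.28 to 0.22, adjusted p = 0.880 from limma). The estimate for Rac1 was above 0 in 5 of the alternatives run, so that it has no settled direction. Leaving out either array of batch 3 gives the same fit, and both are counted among the 5. The difference between the changes of Rac2 and Rac1 was not tested.

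The members thus differed in how much the EAE arrays varied. For Cybb, Cyba 100059_at and Ncf1, EAE array 3 was 1.36, 1.69 and 0.51 log2 units above the mean of the other EAE arrays, whereas for Cyba 97013_f_at, Rac2 and Ncf4 it was 0.20, 0.14 and 0.035 above it. With no batch term the log2 fold change was 2.44 for Cybb and 2.33 for Cyba 100059_at with all arrays, and 2.17 (adjusted p = 2.26e-05 from limma) and 1.99 (adjusted p = 0.000678) without EAE array 3. For Rac2 and Ncf4 the fit without EAE array 3 and batch gave 1.45 and 2.40. EAE array 3 came from mice killed on day 17, the latest day, but no other EAE array was from that day, so day and array cannot be told apart.

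RNA quality also differed among the EAE arrays. For Gapdh the log2 signal of the 3' probe set minus that of the 5' probe set, which grows with RNA degradation, was lowest in EAE array 3 (0.46) and highest in EAE arrays 4 (2.07) and 1 (1.46), against 0.53 to 0.97 in the controls. Among the EAE arrays, Cybb and Ncf1 were lowest in array 4, both Cyba probe sets and Ncf4 in array 5 (Gapdh difference 0.78) and Rac2 in array 1, while Cyba 97013_f_at was highest in array 1. The part of RNA quality in the order of the EAE arrays was not tested. Without EAE array 1 all 6 probe sets remained higher in EAE (adjusted p between 0.000471 and 0.00755 from limma). EAE array 4 has no control in its batch and so adds nothing to these estimates, with or without it.

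**Figure D3:**
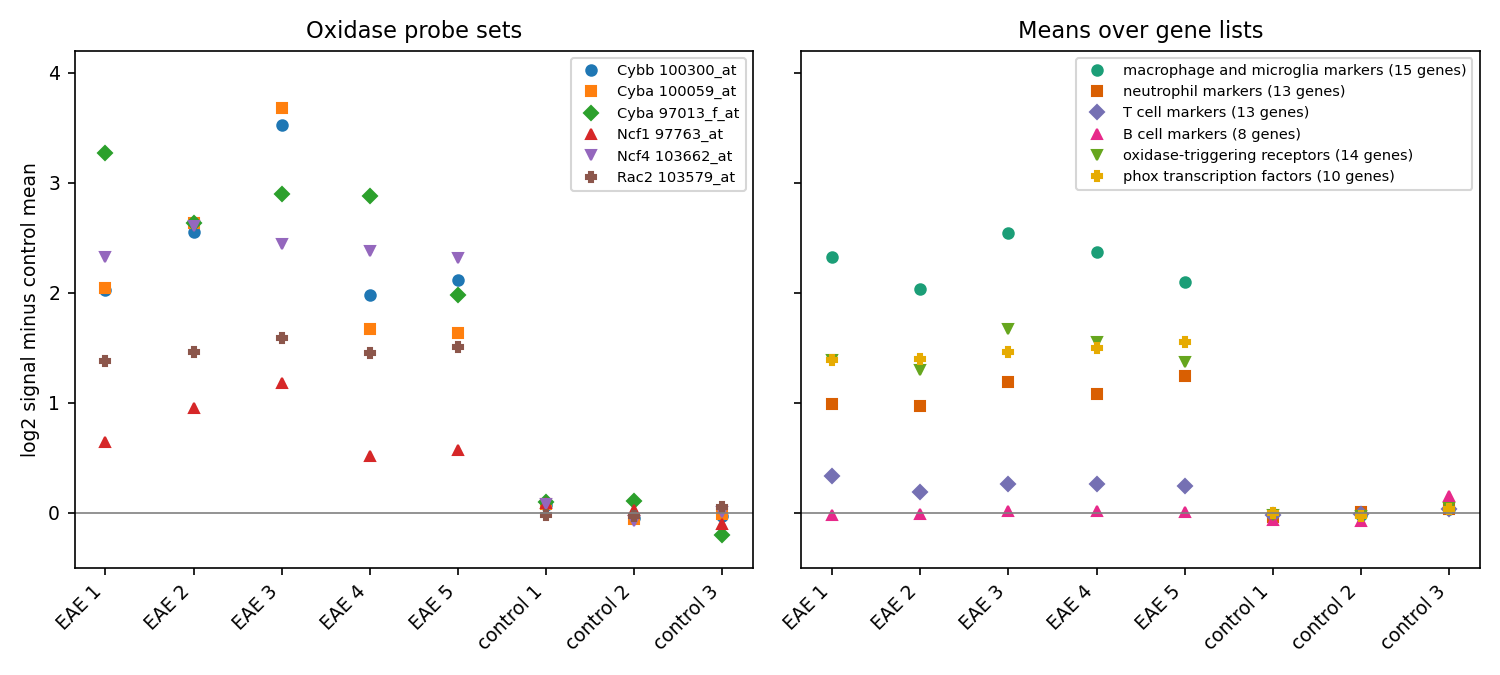
Log2 signal minus the control mean on each of the 8 arrays, for the 6 oxidase probe sets on the left and for the mean of 6 gene lists on the right. EAE array 3 stands out for Cybb and Cyba 100059_at, while the macrophage and microglia list covers 2.04 to 2.55 and the B cell list stays near 0 in the EAE arrays.

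Most markers of macrophages and microglia, cells that carry the oxidase, were also higher in EAE. Among 15 measured markers of macrophages and microglia, 14 were higher and 0 lower in EAE at an adjusted p under 0.05 from limma, where 9.19% of all genes were higher and 13.5% lower, with a median log2 fold change of 2.34. The largest differences were those of the lysozyme Lyz2 (5.93), the galectin Lgals3 (3.77), the pore-forming protein Mpeg1 (3.41) and the signalling adaptor Tyrobp (2.75). The mean log2 signal of the list was 8.21 to 8.72 in the EAE arrays and 6.15 to 6.21 in the control arrays. Within batches 1, 2 and 3 the list differed by 2.34, 2.06 and 2.51. The 6 measured genes of the oxidase complex, Rac1 included, differed by a mean of 1.38, 1.74 and 2.04, so the order of the batches was not the same. Cx3cr1, the fractalkine receptor of microglia, was the 1 marker that did not pass (log2 fold change 0.0026, adjusted p = 0.988 from limma) and is named after its value was seen.

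Neutrophils use the same oxidase, and 6 of 13 neutrophil markers were higher and 0 lower (median log2 fold change 0.20). Over all genes 9.19% were higher and 13.5% lower. The calcium-binding proteins S100a8 (4.54) and S100a9 (3.40), the collagenase Mmp8 (2.39) and the granule protein Ngp (1.73) had the largest differences. The mean log2 signal of the neutrophil list was 6.42 to 6.70 in the EAE arrays and 5.42 to 5.49 in the control arrays. T cell markers were higher for 5 of 13 genes and lower for 0 (median 0.17), led by the adhesion receptor Cd2 (0.67), the receptor subunit Cd3e (0.66), and Cd28 (0.52) and Cd5 (0.48). The mean of the T cell list was 5.68 to 5.83 in EAE and 5.47 to 5.52 in control. Without an array of batch 3 only 1 T cell marker, Cd2, passed among those named, and Cd3e, Cd28 and Cd5 had an adjusted p between 0.0722 and 0.0873. None of 8 B cell markers passed (Ighm -0.36 and Cd22 0.26). The part of each cell type in the oxidase values was not tested.

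Markers of the cord's own cells were compared as well. Of 7 neuron markers 4 were lower and 0 higher (Slc32a1 -0.84, Gad1 -0.68, Stmn2 -0.49 and Snap25 -0.47). The estimates of the 7 lay between -1.42 and -0.42, and the marker with the lowest estimate did not pass. Without an array of batch 2, 6 neuron markers were lower. Of 5 oligodendrocyte markers Mog was lower (-0.89), and of 5 astrocyte markers Gfap was higher (0.74) and S100b lower (-0.50). Over all genes 9.19% were higher and 13.5% lower, so 1 call among 5 genes is not far above these shares. Without an array of batch 3 Stmn2, Snap25 and S100b did not pass (adjusted p between 0.0727 and 0.0832 from limma). None of 3 red blood cell genes passed, and the hemoglobin gene Hba-a1 averaged 7.75 ± 1.14 over the EAE arrays and 6.58 ± 0.37 over the control arrays (SD, n = 5 and 3), an estimate of 1.57 with an adjusted p of 0.0611 from limma. Without an array of batch 3 Hba-a1 passed (adjusted p = 0.0340).

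The other genes of the pathway were taken in lists by their role. Of the receptors that trigger the oxidase 11 of 14 were higher and 0 lower, with a median log2 fold change of 1.09. Over all genes 9.19% were higher and 13.5% lower. The largest estimate was that of Fcgr2b (4.70 ± 0.0778 log2 units, estimate ± SE), which encodes the inhibitory Fc gamma receptor and so does not itself trigger the oxidase. The activating receptor gene Fcgr3, named after its value was seen, was not past the threshold (0.060, limma, adjusted p = 0.611). The differences of Itgb2, the beta subunit of leukocyte integrins, Tyrobp and the formyl peptide receptor Fpr2 lay between 2.68 and 2.76. Without an array of batch 3, 7 of the 14 were higher. Of 10 transcription factors known from the control of phagocyte oxidase genes, 6 were higher and 1 lower (median 1.16). Cebpd (3.51) and Cebpb (3.47), factors of the myeloid and acute phase response, and the interferon regulatory factors Irf1 (2.94) and Irf8 (2.23) had the largest differences. Spi1, which encodes PU.1 and is named after its value was seen, was higher by 1.34 ± 0.127 (estimate ± SE, limma, adjusted p = 0.00386).

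Regulators of Rac and Rap moved in both directions, with 3 of 9 genes higher and 2 lower (median 0.058), where 9.19% of all genes were higher and 13.5% lower. The higher ones were Arhgdib (log2 fold change 1.58), the inhibitor that holds Rac proteins in the cytosol of leukocytes, and the exchange factors Dock2 (1.38) and Vav1 (1.32), which load Rac with GTP. Rap1a, a GTPase found with the flavocytochrome of human neutrophils, was lower (-0.57), and its call was lost without an array of batch 1 (adjusted p = 0.0523) or batch 2 (adjusted p = 0.0773), where 0 genes of the list were lower. Of 13 kinases and lipid enzymes that activate the oxidase 4 were higher and 1 lower (median 0.20). The 1 lower gene of 13 is near the share of 13.5% over all genes. Prkcd, a protein kinase C that phosphorylates p47phox, averaged 9.13 ± 0.13 over the EAE arrays and 8.07 ± 0.05 over the control arrays (SD, n = 5 and 3), an estimate of 1.08, followed by the stress kinase Mapkapk2 (0.77) and the tyrosine kinases Syk (0.73) and Fgr (0.56). Prkcb, another protein kinase C, was the 1 gene called lower (-0.40, limma, adjusted p = 0.0362); it is named after its value was seen, and 0 genes of the list were lower without an array of batch 1, 2 or 3. Fgr did not pass without an array of batch 2 or batch 3 (adjusted p = 0.0540 and 0.0796).

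**Figure D4:**
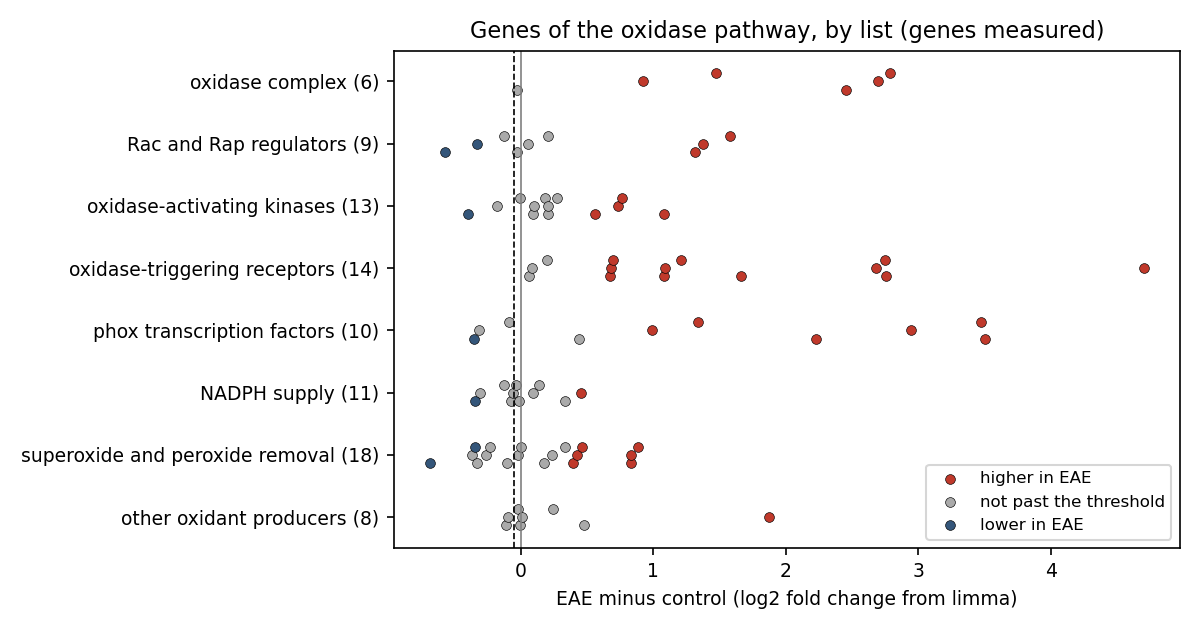
Log2 fold change between EAE and control from limma for every measured gene of the 8 pathway lists, 1 point a gene, with red for higher, blue for lower and grey for not past an adjusted p of 0.05; the dashed line is the median of all genes (-0.052), and the vertical offset of points has no meaning. The NADPH supply genes lie between -0.35 and 0.46, and the subunits of the complex between -0.029 (Rac1) and 2.78 (Cyba).

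Of 11 enzymes that supply NADPH only Pgd, of the pentose phosphate pathway, was higher (0.46) and only Me1, the malic enzyme, was lower (-0.35), with a median of -0.038. These counts are near the shares over all genes, of which 9.19% were higher and 13.5% lower. Neither passed without the batch term (adjusted p = 0.149 and 0.453 from limma), nor without an array of batch 2 or batch 3, and their groups overlapped. Of 18 genes that remove superoxide and peroxide 6 were higher and 2 lower (median 0.087), and 3 were higher without an array of batch 3. The 2 lower genes of 18 are near the share of 13.5% over all genes. The peroxidase Gpx3 (0.89), thioredoxin Txn1 (0.83) and the heme oxygenase Hmox1 (0.83) were higher, and catalase, Cat, was lower (-0.69). Gpx3 was no longer past the threshold without the batch term (adjusted p = 0.0779), and Cat did not pass without an array of batch 2 (adjusted p = 0.0900). Of 8 other producers of oxidants 1 was higher (12.5%), near the 9.19% of all genes. It was Xdh, xanthine oxidoreductase, at 1.88 ± 0.104 (estimate ± SE, limma, adjusted p = 0.000821). Nos2, the inducible nitric oxide synthase, named after its value was seen, stood at 0.48 ± 0.124 (estimate ± SE, limma, adjusted p = 0.0572). Every EAE array of Nos2 lay above every control array, as for 10.9% of all probe sets. The count of higher genes in this list was 0 to 2 over the alternatives, against 1 here. Other oxidases of the NOX and DUOX family, 9 genes, were not analysed here.

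The genes whose brightest probe set was most like the mean of the 5 members over the 8 arrays were Irf7 (Pearson correlation 0.997), Capg (0.997), Il12a (0.993), C1qb (0.991) and H2-Aa (0.990). The points of each group share the gap between EAE and control. The correlation of the deviations from the group means over the 8 arrays was 0.978, 0.963, 0.908, 0.879 and 0.864 for the same genes. For the members themselves it was 0.986 for Cybb, 0.992 for Cyba 100059_at, 0.969 for Ncf1, 0.538 for Ncf4 and 0.669 for Rac2. Each member is itself part of this mean, so its own value raises the correlation, most where it varies most. The SD over the EAE arrays was 0.85 for Cyba 100059_at and 0.65 for Cybb, against 0.12 for Ncf4 and 0.078 for Rac2. Whether Ncf4 and Rac2 differ from the other members in their likeness within the groups was not tested. Irf7, a regulator of interferon genes, and Capg, an actin-capping protein of macrophages, had signals of 6.78 and 7.28 on EAE array 3, against 6.29 to 6.50 and 6.51 to 7.06 on the other EAE arrays. C1qb, a chain of complement C1q, and H2-Aa, an MHC class II chain, were also highest on EAE array 3 (9.82 and 11.51). Il12a, a cytokine subunit, was not past the threshold (0.17 log2 units, limma, adjusted p = 0.141).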

How the data were processed

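The deposited values are log2 signals that the authors computed with RMA in Partek, including quantile normalization and an adjustment for probe GC content. Tool versions are not given in the sources used here. The values were used as they stand, with array medians between 6.08 and 6.12. Such normalization assumes like distributions on all arrays and tends to compress differences of dim and bright probe sets. Control probe sets (66) were dropped, and dim probe sets were kept. Differences were fitted on all 12422 probe sets with limma 3.58.1 in R 4.3.3, with treatment and batch as fixed terms as in the methods' analysis of variance, 2 residual and 3.05 prior degrees of freedom. With batch in the model the estimate rests on batches 1 to 3, and batches 4 and 5 add none. Tests were two-sided, with Benjamini-Hochberg adjustment over all probe sets.

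Batch equals the replicate number in the labels, and the correlation of deviations from the group means was 0.302, -0.231 and 0.412 in batches 1, 2 and 3. Of the probe sets 10833 had 1 gene symbol, and the one with the highest mean stood for each gene. The members and the 17 lists (203 genes, of which 155 were measured) were chosen with earlier results of these data known. Named genes are the members, the complex, up to 4 called genes of each list with the largest change (up to 2 where none passed) and the 5 genes most like the members, apart from the exceptions given. The fit was tested on data simulated with normal noise at its own fitted variances, so departures from these assumptions were not tested. Of 188 calls there 14 were of unchanged probe sets. Of the changed probe sets 42 of 67 were called at 0.5 log2 units, 66 of 67 at 1 and 66 of 66 at 2. The number of arrays limits the precision. Alternatives were other batch terms, variance priors, scalings, array weights, a dim filter, thresholds, probe set means and each array left out. Figures were drawn with matplotlib 3.10.9.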

Additional observations from a re-analysis of the deposited data

Results flagged for a closer look

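The 5 EAE arrays were examined for a single distant array in 73 cases, covering members, named genes and lists. Such an array was found in 5 cases, and about 1 in 20 arises by chance. None of the 6 oxidase probe sets was among them. H2-Aa was higher in EAE array 3 (log2 signal 11.51, others 9.56 to 9.98). EAE array 5 was higher for Mapkapk2 (9.16, others 8.58 to 8.69), Txn1 (10.84, others 10.37 to 10.46) and Stmn2 (10.53, others 10.11 to 10.18). EAE array 2 was lower for Lgals3 (8.72, others 9.24 to 9.31).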

How the results depend on the processing

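The 6 oxidase probe sets were higher in EAE in every alternative run, with log2 fold changes between 2.17 and 3.07 for Cybb, 1.99 and 3.20 for Cyba 100059_at, 2.69 and 3.13 for Cyba 97013_f_at, 0.67 and 1.11 for Ncf1, 2.34 and 2.56 for Ncf4 and 1.44 and 1.52 for Rac2. With the methods' two-way analysis of variance without moderation of the variances, on 2 residual degrees of freedom, 0 of the 6 passed after adjustment (adjusted p = 0.193 for Cybb with a log2 fold change of 2.70, 0.199 for Cyba 100059_at with 2.78, 0.132 for Cyba 97013_f_at with 2.93, 0.232 for Ncf1 with 0.92, 0.124 for Ncf4 with 2.46 and 0.106 for Rac2 with 1.47), and 6 had an unadjusted p under 0.05. The same fit called 1 probe set higher and 0 lower, and 1081 and 1575 at an unadjusted p under 0.05. It called 0 of the 155 list genes, against 74 with limma, and 64 at an unadjusted p under 0.05. Without each array in turn the log2 fold change of Ncf1 lay between 0.74 and 1.11 and 5 to 6 member probe sets passed. With every array 1026 probe sets of the whole table were higher and 1412 lower, and without each array 521 to 1026 were higher and 225 to 1412 lower, fewest without an array of batch 3. At an adjusted p threshold of 0.01 the counts were 540 higher and 290 lower, and at least 2-fold they were 419 and 44.

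With no replicate block, that is without the pairing by batch, 6 of 6 member probe sets passed, with 1062 probe sets higher and 1278 lower. Rac1 had a log2 fold change above 0 without the block (0.026), with the block as a random term (0.014), without an array of batch 3 (0.087) and without both the block and EAE array 3 (0.078), the last chosen after seeing the data, as was leaving out EAE arrays 1 and 4. Without each array in turn its estimate lay between -0.12 and 0.087. Of 45 called genes named beside the members 1 was lost without an array of batch 1, 6 of batch 2 and 9 of batch 3, and 3 without the block. Ncf1 and Ncf4 were too dim for the filter at a mean log2 signal of 6.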
